A study of Cucumis melo with 27 samples.

Results

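Transcript abundance was compared between fruits of 2 melon (Cucumis melo) cultivars, TTDV and F39, harvested 40 days (d) after flowering. Each cultivar was represented by 3 RNA-seq libraries, so that 6 of the 27 libraries of the study were compared. The other libraries entered the same model and so helped to set the estimate of the spread. All plants were grown in the field under the same management, on mulched beds with drip irrigation, and the labels name no treatment of either cultivar. The labels name the tissue as fruit, without saying which part of the fruit was taken or whether replicate libraries are from different plants. The p-values therefore measure the spread between libraries, which may be technical. The rest of the study comprised F39 leaves aged 14 d and fruits of both cultivars at 20-25, 30-35 and 45 d.

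The libraries were assigned by their number, and that assignment is assumed. Libraries S7, S8 and S9 are F39 fruit at 40 d, and for these the number in the sample title equals the number in the attached file. Libraries S16, S17 and S18 carry the numbers of the samples titled TTDV fruit at 40 d, but their files are attached in GEO to samples titled TTDV fruit at 30-35 d. Both readings make these 3 libraries TTDV fruit and differ in the age of the fruit. Libraries S59 to S61, which are F39 at 45 d by number, are attached to samples titled TTDV at 40 d. Under the attachment the comparison rests on other TTDV libraries, and its result is given beside the main one.

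Melon fruit fills with sugar, loses chlorophyll, softens and forms its aroma as it ripens. In climacteric cultivars a burst of the hormone ethylene coordinates much of this programme, whereas non-climacteric cultivars ripen with little ethylene, so cultivars can be at different points of ripening on the same day. Genes are named here by their deposited IDs. None of the 25200 IDs could be paired with a gene name in the reference table used here (0 matched), so no role is given for any gene, and the genes are ordered by their pattern.

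Before the cultivars were compared, each library was placed on a stage scale built from other libraries. The scale ran from 0 at the mean of the 20-25 d fruits to 1 at the mean of the 45 d fruits of both cultivars, over 10195 genes. The F39 libraries S7, S8 and S9 lay at 0.743, 0.908 and 0.697. The TTDV libraries S16, S17 and S18 lay at 0.881, 0.613 and 0.920. The ranges overlapped, and S8 lay with S16 and S18 while S17 lay below S7 and S9. The mean difference of 0.022 was smaller than the spread between libraries of either cultivar (SD 0.111 in F39 and 0.168 in TTDV, n = 3 each; exact two-sided permutation test, p = 0.9, the smallest possible p being 0.1), and its sign changed without S9 (-0.021), S16 (-0.016) or S18 (-0.036).

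The same libraries also differed in leaf-associated RNA. A set of 291 genes, chosen for at least 50 CPM (counts scaled to a common library total of 1e6) in every leaf library and at most 0.1 of the leaf mean in every F39 fruit library at 20-25 d, held 55.1 to 60.9% of leaf counts. In F39 fruit at 40 d this set held 4.85% of counts in S7, 1.15% in S8 and 3.93% in S9. In TTDV it held 1.25% in S16, 4.95% in S17 and 1.47% in S18. S7, S9 and S17 were thus high and the other three low, in both cultivars. The cultivars did not separate (means of 33120 CPM in F39 and 25550 CPM in TTDV; exact two-sided permutation test, p = 1). In S7, S9 and S17 the leading gene of the set was MELO3C012252.2, at 3256, 2657 and 3897 CPM, against a leaf mean of 149400 CPM. The leading genes of the other three were lower and nearer to their leaf level. They were MELO3C007124.2 in S8 at 817 CPM (leaf mean 6078), MELO3C010662.2 in S16 at 916 CPM (leaf mean 460) and MELO3C022772.2 in S18 at 1660 CPM (leaf mean 1856). In S16 the leading gene was thus higher than in leaf. In bulk tissue more cells of a type and more RNA per cell cannot be told apart. The part of this RNA in the results below was not tested.

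**Figure D1:**
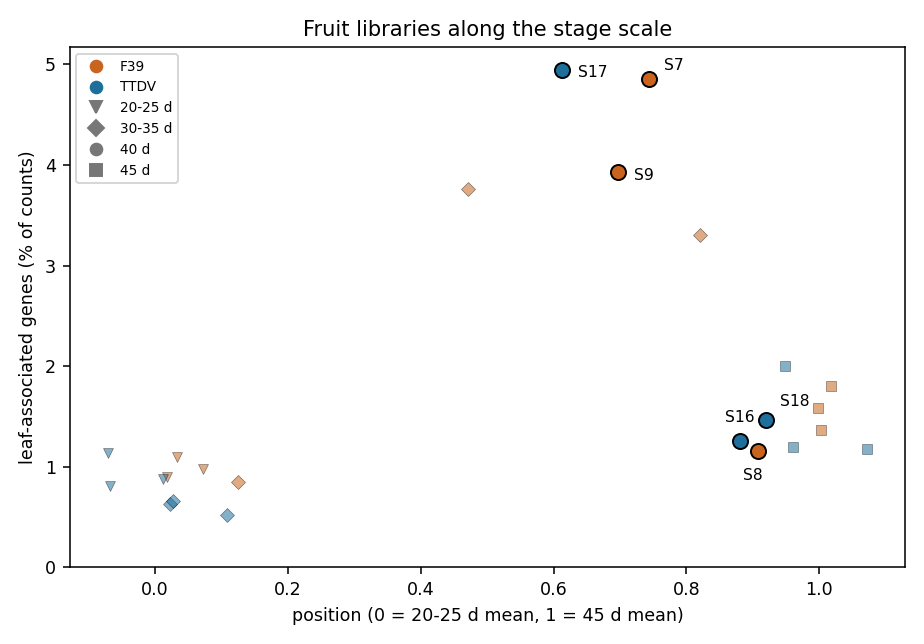
Each point is 1 fruit library, placed by its position on the stage scale (x axis, no unit, 0 at the 20-25 d mean and 1 at the 45 d mean) and by the percent of its counts in 291 leaf-associated genes (y axis), with colours for cultivar and symbols for age. The 6 libraries at 40 d are outlined and named: S8, S16 and S18 lie together at 1.15 to 1.47% of counts, and S7, S9 and S17 at 3.93 to 4.95%.

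Libraries of the 2 cultivars were about as alike as libraries of 1 cultivar. Over 10472 genes averaging 5 CPM or more, Spearman correlations across genes, which are not independent replicates, were 0.87 to 0.96 within F39, 0.86 to 0.94 within TTDV and 0.79 to 0.90 between them. The lowest value joined S8 and S17. The highest values within the cultivars joined S7 with S9 and S16 with S18. S17 stood at 0.90 with both S7 and S9, and at 0.87 and 0.86 with S16 and S18. S8 stood at 0.88 and 0.90 with S16 and S18, and at 0.89 and 0.87 with S7 and S9. The biological coefficient of variation was 0.552 in F39 and 0.618 in TTDV at 40 d, within the range of 0.372 to 0.76 over the 9 groups. Total counts were 7446893, 6500255 and 9249062 in S7, S8 and S9, and 9137944, 15214810 and 12078342 in S16, S17 and S18. Of all genes, 9765 reached 1 CPM in each of the 6 libraries.

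Few genes passed the threshold between the cultivars. All differences were tested with edgeR (quasi-likelihood), fitted to all 27 libraries, and p-values were adjusted by Benjamini-Hochberg over 15130 genes. At an adjusted p under 0.05, 17 genes were higher in TTDV (0.112% of those tested) and 11 were lower (0.0727%). Together these 28 genes were 0.185% of those tested, and 1580 genes (10.4%) had an unadjusted p under 0.05. In all 28 the 3 libraries of one cultivar lay above the 3 of the other, an ordering that 20.7% of all genes tested also had (16.2% with TTDV above and 4.51% with TTDV below). The ordering uses CPM on library totals, without the TMM factors of the test. These were 1.025 to 1.137 in TTDV and 0.8901 to 1.044 in F39, and their part in the uneven shares was not tested. The absolute log2 fold changes of the 28 genes ran from 1.67 to 10.01, with a median of 3.09, against a median of 0.49 over all genes tested. For genes averaging 10 CPM or more over the 6 libraries, the median standard error of the log2 fold change was 0.39. Of these 7976 genes, 1028 (12.9%) had an absolute log2 fold change of 1 or more. A gene that was not called was not shown to be alike in the 2 cultivars. With median-of-ratios scaling in place of TMM the calls were 13 higher and 14 lower in TTDV, and the median over all genes moved from 0.09 to 0.00 on the log2 scale.

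The number of calls depended on single libraries. It was 14, 53 and 20 without S7, S8 and S9, and 7, 31 and 10 without S16, S17 and S18. The direction of all 28 genes was the same in each of these fits. The call of 4 genes (MELO3C002729.2, MELO3C006443.2, MELO3C016167.2 and MELO3C019418.2) held in all 6, and that of 5 genes held in none, with adjusted p values of up to 0.204 where a call was lost. No gene was called when only the 6 libraries were fitted, beside 1369 of 11591 at an unadjusted p under 0.05. DESeq2 called 297 genes, all 28 among them. With files as attached in GEO 484 genes were higher and 643 lower in the libraries then named TTDV at 40 d, and 8 of the 28 genes were among these 1127.

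**Figure D2:**
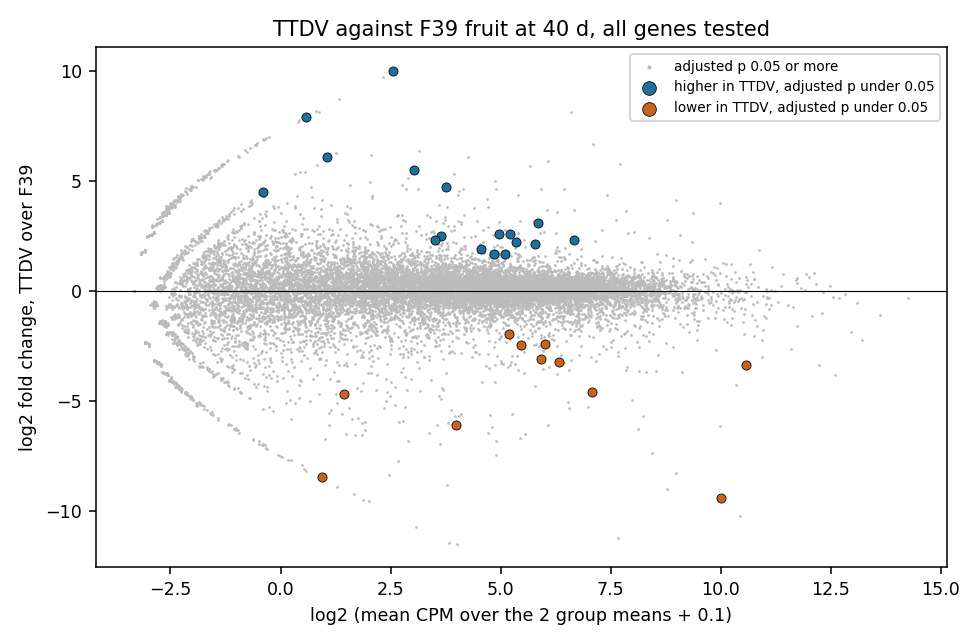
Log2 fold change of TTDV over F39 at 40 d (y axis) against mean abundance (x axis, log2 of CPM + 0.1) for each of the 15130 genes tested. The 17 genes called higher in TTDV (blue) and the 11 called lower (orange) are outlined, and genes that were not called (grey) reach folds as large, most often at low abundance.

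MELO3C016167.2 was the most abundant of the 4 genes whose call held without any 1 of the 6 libraries. It stood at 2071, 2448 and 1618 CPM in the F39 libraries S7, S8 and S9 and at 3.72, 0.526 and 5.96 CPM in the TTDV libraries S16, S17 and S18. It was thus among abundant transcripts of F39 fruit and close to absent from every TTDV library of that age. The log2 fold change of TTDV over F39 was -9.43 (SE 1.39, edgeR adjusted p = 0.00362), and -10.20 without S18. With only the 6 libraries fitted it was -9.50 (adjusted p = 0.207), and with files as attached it was 0.23 (adjusted p = 0.927). In F39 it rose from 258 ± 58 CPM at 20-25 d to 2885 ± 116 CPM at 45 d (SD, n = 3 each, log2 fold change 3.48, edgeR adjusted p = 0.0161). In TTDV its log2 fold change over the same interval was -1.86 (adjusted p = 0.142). That sign rested on S10, which had 155.2 CPM at 20-25 d beside 10.3 and 4.15 CPM in S11 and S12, and without S10 the value was 1.24 (adjusted p = 0.27). Leaves of F39 held 138.5 CPM.

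MELO3C007979.2 and MELO3C010434.2 were the next genes lower in TTDV at 40 d whose difference was also called at 45 d. MELO3C007979.2 had 115, 174 and 143 CPM in S7, S8 and S9 and 10.2, 11.8 and 29.6 CPM in S16, S17 and S18. Every F39 library lay well above the highest TTDV library. Its log2 fold change was -3.24 (SE 0.58, edgeR adjusted p = 0.0156), or -3.93 without S18, and the call was lost without S16 or S17 (adjusted p of up to 0.0997). From 20-25 to 45 d it rose in F39 (log2 fold change 2.23, adjusted p = 0.00466), and in TTDV its log2 fold change was -0.38 (adjusted p = 0.595).

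MELO3C010434.2 had 82.5, 115 and 118 CPM in S7, S8 and S9 and 24.4, 28.4 and 14.4 CPM in S16, S17 and S18. The log2 fold change was -2.42 (SE 0.41, edgeR adjusted p = 0.0156), and the call was lost without S16 or S18 (adjusted p of up to 0.0757). This gene followed another course: from 20-25 to 45 d it fell in TTDV, with a log2 fold change of -3.77 (adjusted p = 7.54e-06), and in F39 the log2 fold change was -0.77 (adjusted p = 0.141). In both cultivars the mean was highest at 30-35 d. At 20-25, 30-35, 40 and 45 d it was 100.8, 219.6, 105.4 and 58.2 CPM in F39 and 87.7, 218.9, 22.4 and 6.63 CPM in TTDV. MELO3C026419.2 had a like course. It stood at 91.9, 46.3 and 82.2 CPM in F39 and 9.19, 24.1 and 10.5 CPM in TTDV at 40 d, a log2 fold change of -2.46 (adjusted p = 0.0283), or -3.09 without S17. Its call was lost without S7, S9, S16 or S18 (adjusted p of up to 0.158). Its log2 fold change from 20-25 to 45 d was -2.22 in TTDV (adjusted p = 0.00104) and -0.37 in F39 (adjusted p = 0.55). Its mean too was highest at 30-35 d in both cultivars. At the same ages it was 46.0, 103.7, 73.4 and 35.1 CPM in F39 and 42.6, 87.5, 14.6 and 9.84 CPM in TTDV.

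MELO3C009252.2 fell with age in both cultivars and was lower in TTDV at 40 d. Its levels were 50.4, 182 and 86.2 CPM in S7, S8 and S9 and 24.1, 7.69 and 12.8 CPM in S16, S17 and S18, and its log2 fold change was -3.08 (SE 0.64, adjusted p = 0.0471), or -2.39 without S8. At 20-25 d it had averaged 447 CPM in F39 and 371 CPM in TTDV. The fall from 20-25 to 45 d had a log2 fold change of -3.11 in F39 (adjusted p = 0.00127) and -5.18 in TTDV (adjusted p = 2.71e-05). The call at 40 d held in 1 of the 6 fits without a library, the one without S7, with adjusted p values of up to 0.172 in the others.

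The 3 remaining genes that were lower in TTDV and over 10 CPM on average, apart from MELO3C026575.2, had 1 F39 library far above the others. MELO3C009063.2 had 143.7, 596.6 and 28.4 CPM in S7, S8 and S9 and 12.4, 15.1 and 10.1 CPM in S16, S17 and S18, and the log2 fold change was -4.57 (SE 0.78, adjusted p = 0.0156). It was -2.88 without S8 and -5.21 without S9, and the call was lost without S16 or S18 (adjusted p of up to 0.0838). MELO3C007764.2 had 1005, 584 and 6694 CPM in the F39 libraries and 313, 304 and 288 CPM in the TTDV libraries, and the log2 fold change was -3.38 (SE 0.64, adjusted p = 0.0277). Without S9 its value was -1.60 and it no longer passed (adjusted p = 0.159), nor did it without any 1 of the TTDV libraries. MELO3C005083.2 had 31.2, 93.7 and 43.9 CPM in F39 and 19.9, 13.5 and 17.1 CPM in TTDV, and its log2 fold change was -1.96 (SE 0.38, adjusted p = 0.0323). It was -1.33 without S8 (adjusted p = 0.14), and the call was also lost without any 1 of the TTDV libraries. In all 3 genes the TTDV libraries lay close together, and the size of the difference rested on how high the F39 libraries were.

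Among genes higher in TTDV, MELO3C002729.2 and MELO3C006443.2 kept their call without any 1 library. MELO3C002729.2 had 0.94, 0.308 and 1.30 CPM in S7, S8 and S9 and 16.4, 10.8 and 50.5 CPM in S16, S17 and S18. The lowest TTDV library was above the highest F39 library, and S18 stood above the other TTDV libraries. The log2 fold change was 4.72 (SE 0.67, adjusted p = 0.00362), or 3.74 without S18 (adjusted p = 0.0163). In young fruit both cultivars had it in abundance, at 97.6 ± 15.5 CPM in F39 and 141 ± 34 CPM in TTDV at 20-25 d (SD, n = 3 each). At 30-35 d it averaged 14.3 CPM in F39 and 88.7 CPM in TTDV (log2 fold change 2.58, edgeR adjusted p = 0.00924). In TTDV the mean was lowest at 40 d, at 25.9 CPM. By 45 d it had fallen in F39, with a log2 fold change of -4.96 (adjusted p = 4.27e-05), while in TTDV the log2 fold change was -0.74 (adjusted p = 0.287) and the 3 libraries stood at 91.0, 90.2 and 93.0 CPM.

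MELO3C006443.2 had 10.3, 12.5 and 9.73 CPM in S7, S8 and S9 and 90.2, 139.7 and 81.4 CPM in S16, S17 and S18. The libraries of each cultivar lay close together, and the cultivars were far apart. Its log2 fold change of 3.09 (SE 0.44, edgeR adjusted p = 0.00362) ranged from 2.75 to 3.22 without each library. From 20-25 to 45 d it rose in TTDV by a log2 fold change of 1.78 (adjusted p = 0.00225), and in F39 the log2 fold change was -0.38 (adjusted p = 0.503). MELO3C013854.2 was higher at 45 d than at 20-25 d in both cultivars (edgeR adjusted p = 0.000756 in TTDV and 0.0121 in F39). In F39 it was lowest at 40 d, with means of 45.5, 40.3, 29.6 and 120.5 CPM at 20-25, 30-35, 40 and 45 d. At 40 d it had 22.7, 49.5 and 16.5 CPM in F39 and 183.7, 119.6 and 216.0 CPM in TTDV, and its log2 fold change was 2.34 (SE 0.41, adjusted p = 0.0156), or 3.00 without S8. Its call was lost without S7, S9, S16 or S18 (adjusted p of up to 0.125).

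MELO3C006866.2 fell with age in both cultivars and was higher in TTDV. Its levels at 40 d were 6.04, 10.8 and 10.5 CPM in F39 and 67.9, 32.9 and 92.2 CPM in TTDV, and its log2 fold change was 2.62 (SE 0.52, adjusted p = 0.0351). At 20-25 d they had averaged 62.9 CPM in F39 and 254 CPM in TTDV, and the fall to 45 d had a log2 fold change of -2.22 in F39 (adjusted p = 0.00281) and -1.97 in TTDV (adjusted p = 0.00414). The call at 40 d held in 1 of the 6 fits without a library, the one without S17, with adjusted p values of up to 0.198 in the others. MELO3C005785.2 had 11.95, 17.2 and 8.87 CPM in F39 and 84.5, 59.6 and 60.5 CPM in TTDV, and its log2 fold change was 2.24 (SE 0.39, adjusted p = 0.0156). Its change from 20-25 to 45 d passed the threshold in neither cultivar (adjusted p = 0.278 in F39 and 0.333 in TTDV), and its call at 40 d was lost without S7, S9 or S16 (adjusted p of up to 0.103).

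Another 4 genes higher in TTDV were named for the size of their change. MELO3C005241.2 had 16.9, 22 and 15.9 CPM in F39 and 86.5, 66.0 and 121.2 CPM in TTDV (log2 fold change 2.14, adjusted p = 0.0156). MELO3C010929.2 had 10.9, 6.62 and 6.92 CPM in F39 and 56.6, 50.4 and 55.6 CPM in TTDV (log2 fold change 2.58, adjusted p = 0.0207). MELO3C007308.2 had 5.91, 1.08 and 3.46 CPM in F39 and 19.2, 23.6 and 21.5 CPM in TTDV (log2 fold change 2.49, adjusted p = 0.0156). For each of these the TTDV libraries lay within a narrower band, relative to their level, than the distance between the cultivars. MELO3C016379.2 had 5.24, 3.23 and 1.95 CPM in F39 and 16.4, 22.9 and 17.6 CPM in TTDV (log2 fold change 2.32, adjusted p = 0.0355). Without 1 library at a time the calls held in 2 of 6 fits for MELO3C005241.2, in 1 for MELO3C010929.2, in 4 for MELO3C007308.2 and in none for MELO3C016379.2, with adjusted p values of up to 0.189.

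**Figure D3:**
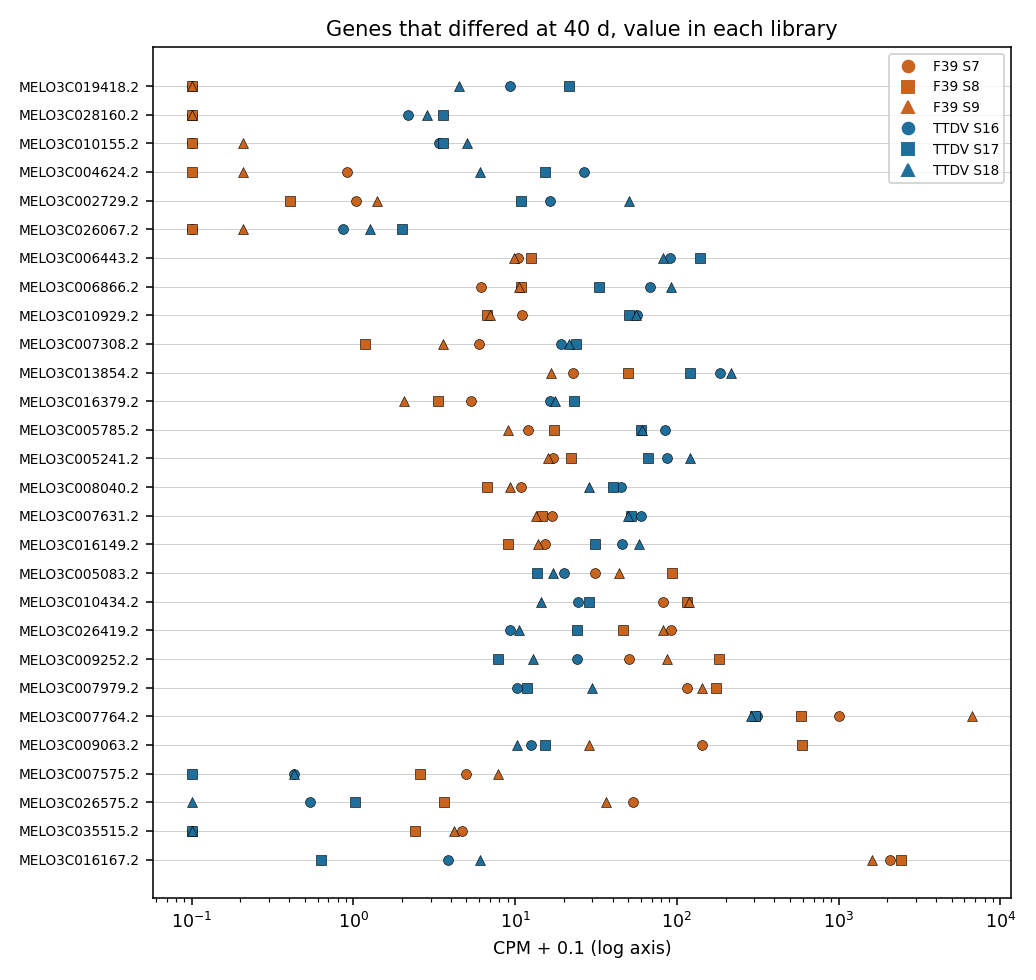
Abundance (x axis, CPM + 0.1, log axis) of the 28 genes called at 40 d in each of the 6 libraries, with 1 row per gene, colours for cultivar and symbols for library. In every row the 3 libraries of one cultivar lie to one side of the 3 of the other, and the spread among the F39 libraries is wide for MELO3C009063.2 and MELO3C007764.2.

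The called genes outside the rule for naming were less abundant or less changed, and are given because the list is short. MELO3C004624.2 had 0.806, 0 and 0.108 CPM in S7, S8 and S9 and 26.5, 15.2 and 5.96 CPM in S16, S17 and S18 (log2 fold change 5.52, adjusted p = 0.0484). Its value was 7.49 without S7, and its call held in none of the 6 fits without a library. MELO3C007575.2 had 4.83, 2.46 and 7.68 CPM in F39 and 0.328, 0 and 0.331 CPM in TTDV (log2 fold change -4.70, adjusted p = 0.0156), or -4.09 without S17. Its call was lost without S16 or S18 (adjusted p of up to 0.0739), and it fell with age in both cultivars, with log2 fold changes of -2.66 in F39 (adjusted p = 0.00716) and -3.21 in TTDV (adjusted p = 0.00193). MELO3C016149.2, MELO3C007631.2 and MELO3C008040.2 had the smallest changes of the genes higher in TTDV, with log2 fold changes of 1.67, 1.69 and 1.93 and adjusted p values of 0.0283, 0.0471 and 0.0471. The call of MELO3C016149.2 held in 1 of the 6 fits without a library and those of the other two in none.

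A few genes were present in one cultivar and without a count in the other at 40 d. With at least 1 CPM in all 3 libraries of one cultivar and no count in the other, 3 genes of 25200 (0.0119%) were present in TTDV and 4 (0.0159%) in F39. Folds for these are lower bounds against a floor of 3 counts over the group without counts, and cover counting error only. MELO3C019418.2 had 9.19, 21.3 and 4.39 CPM in S16, S17 and S18 while F39 had no count. Its level in TTDV was at least 90-fold higher, or 53-fold without S17 (edgeR adjusted p = 0.00362). MELO3C028160.2 had 2.08, 3.48 and 2.73 CPM in TTDV, at least 21-fold higher (adjusted p = 0.0351). Its call was lost in each of the 6 fits without a library (adjusted p of up to 0.125). MELO3C030913.2 had 3.06, 1.32 and 5.55 CPM in TTDV, at least 26-fold higher and at least 17-fold without S18, and did not pass the test (adjusted p = 0.168).

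Of the genes present in F39 without a count in TTDV, 1 of 4 passed the test. MELO3C035515.2 had 4.57, 2.31 and 4.11 CPM in S7, S8 and S9 and was at least 44-fold higher in F39 (adjusted p = 0.0283), with a call that held only without S8 among the 6 fits without a library. MELO3C035133.2 had 6.98, 3.85 and 7.68 CPM and was at least 75-fold higher (adjusted p = 0.106). It passed in the fit without S10 (adjusted p = 0.00158), the TTDV library at 20-25 d with 24.6 CPM where S11 and S12 had no count. MELO3C004313.2 had 6.71, 1.23 and 2.70 CPM and was at least 43-fold higher, or 24-fold without S7 (adjusted p = 0.133). MELO3C031410.2 had 2.95, 1.85 and 1.62 CPM and was at least 26-fold higher (adjusted p = 0.29). The test thus left 3 of these genes uncalled with all libraries fitted.

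In 2 further called genes the F39 libraries held a single count. MELO3C010155.2 had 3.28, 3.48 and 4.97 CPM in S16, S17 and S18, a ratio of 90.7 over F39 with a 95% counting interval of 16.3 to 3580 (adjusted p = 0.0323). MELO3C026067.2 had 0.766, 1.91 and 1.16 CPM in TTDV, a ratio of 29.6 with an interval of 5.32 to 1170 (adjusted p = 0.0156). In both the single count was in S9. The first call held only without S17 and the second was lost only without S7, with adjusted p values of up to 0.147 where they were lost. In the other direction MELO3C026575.2 had 53.2, 3.54 and 36.1 CPM in S7, S8 and S9 and 0.438, 0.92 and 0 CPM in S16, S17 and S18. S8 lay nearer to TTDV than the other F39 libraries did. The log2 fold change was -6.11 (adjusted p = 0.0375), or -7.38 without S17, and the call held only without S8, with adjusted p values of up to 0.19 otherwise.

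Most of the 28 genes had a fold change of the same direction at the other ages. Those libraries are not among the 6 compared at 40 d, but they share the model and its estimate of the spread. At 45 d, when 0.297% of all genes tested were called, all 17 genes higher in TTDV at 40 d were again higher, 7 of them past the threshold, where 0.218% of all genes tested were called higher. Of the 11 lower genes 9 were again lower, 4 of them past the threshold, where 0.0793% of all genes were called lower. Of all genes tested 56.2% had the same direction at 40 and 45 d. The 7 shared calls were 41.2% of the genes higher at 40 d and 21.2% of the 33 higher at 45 d. The 4 shared calls were 36.4% of the genes lower at 40 d and 33.3% of the 12 lower at 45 d. The median log2 fold change of the 17 genes was 2.58 at 40 d and 1.58 at 45 d, and that of the 11 genes was -3.38 and -2.19. Genes with no count in 1 cultivar enter these medians with fitted values that depend on a prior count. The 28 genes were chosen by their 40 d difference, which favours large values at 40 d. The smaller medians at 45 d therefore do not show that the difference changed with age.

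At 45 d the shared calls included MELO3C016167.2, with 2899, 2763 and 2994 CPM in F39 and 6.29, 22.9 and 24.7 CPM in TTDV (log2 fold change -7.30, adjusted p = 0.00964). MELO3C002729.2 had 2.15, 3.65 and 3.36 CPM in F39 and 91.0, 90.2 and 93.0 CPM in TTDV (log2 fold change 4.92, adjusted p = 0.00221). MELO3C019418.2, MELO3C010155.2 and MELO3C028160.2 had no count in F39 and at least 1.68 CPM in each TTDV library. By contrast MELO3C009063.2 had 11.4, 10.1 and 9.65 CPM in F39 at 45 d and 8.95, 14.1 and 13.8 CPM in TTDV, so that the ranges overlapped (log2 fold change 0.27, adjusted p = 0.987). MELO3C005083.2, with a log2 fold change of 0.27 (adjusted p = 0.931), was the other gene with a different sign at 45 d.

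The difference between the ages was itself tested and no gene passed. For the 40 d difference against the 45 d difference edgeR called 0 genes, with 854 at an unadjusted p under 0.05 and a smallest adjusted p of 0.178. DESeq2 called 40. MELO3C009063.2 had a log2 difference of -4.85 between the ages (edgeR adjusted p = 0.264) and MELO3C005083.2 of -2.23 (adjusted p = 0.506). The 40 d difference against the 20-25 d difference also gave 0 calls by edgeR, with 1414 genes at an unadjusted p under 0.05, a smallest adjusted p of 0.101 and 115 calls by DESeq2. MELO3C016167.2, MELO3C002729.2, MELO3C006443.2 and MELO3C010929.2 each stood at adjusted p = 0.101 in that test. For MELO3C016167.2 the 20-25 d side depended on S10, with a log2 fold change of -1.96 with S10 and -5.10 without it.

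**Figure D4:**
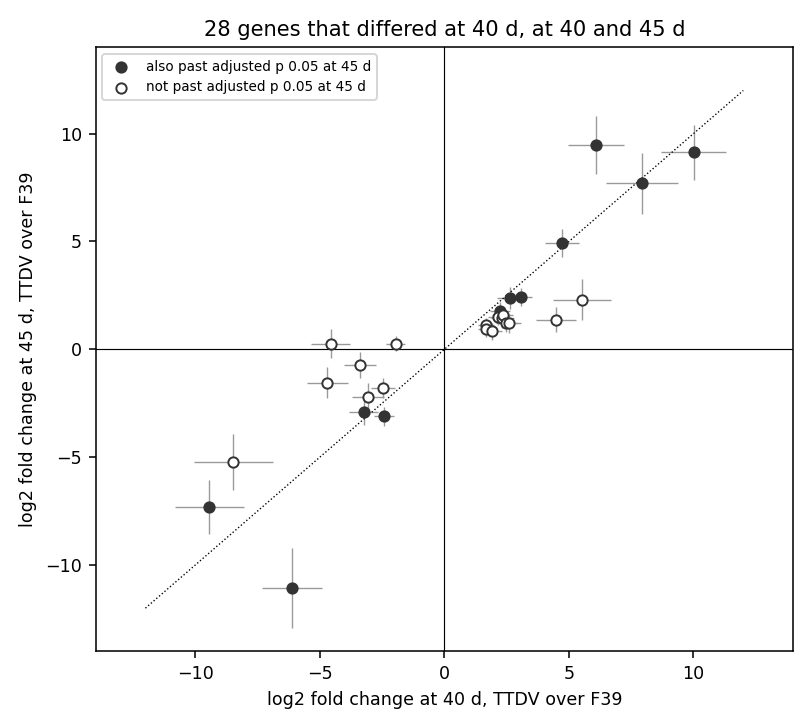
Log2 fold change of TTDV over F39 at 40 d (x axis) and at 45 d (y axis) for the 28 genes called at 40 d, with standard errors as bars, filled points for genes also called at 45 d and a dotted line of equal change. All 17 genes on the right lie above 0 and 9 of the 11 on the left lie below it, and the points farthest from 0 include genes with no count in a group, whose fitted values depend on a prior count. The genes were chosen by their 40 d difference, which favours large values on the x axis.

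In younger fruit the directions were mostly the same and fewer differences passed at 20-25 d. At that age 16 of the 17 higher genes and 9 of the 11 lower genes had the same direction, against 52.8% of all genes tested, and 2 and 0 of them passed the threshold, where 0.0859% and 0.0991% of all genes did (0.185% together). The median log2 fold change was 0.81 for the 17 genes and -0.31 for the 11 genes. MELO3C019418.2 and MELO3C010155.2 were the 2 called at 20-25 d. Without S10, MELO3C016167.2 was called as well (log2 fold change -5.10, adjusted p = 0.0467), and the genes called lower at that age fell from 15 to 8. At 30-35 d, when 8.52% of all genes were called, 17 of 17 and 7 of 11 had the same direction, against 56.9% of all genes, with 9 and 4 called where 2.71% and 5.81% of all genes were. At that age the cultivars lay apart on the stage scale, with F39 libraries between 0.125 and 0.821 and TTDV libraries between 0.023 and 0.108, and the part of that distance in the calls was not tested.

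Across all ages, 5 of the 28 genes separated every fruit library of the 2 cultivars in CPM on library totals, with files by library number. MELO3C010155.2, MELO3C019418.2 and MELO3C028160.2 were higher in all 12 TTDV libraries than in any of the 12 F39 libraries. MELO3C019418.2 ranged from 4.06 to 21.3 CPM in TTDV, with a median of 6.93, and reached at most 0.118 CPM in F39. MELO3C016167.2 and MELO3C026575.2 were lower in all TTDV libraries. For MELO3C026575.2 the margin was small, with 3.29 CPM in S10 of TTDV and 3.54 CPM in S8 of F39. MELO3C016167.2 ranged from 191.5 to 3400 CPM in F39, with a median of 1845, and from 0.526 to 155.2 CPM in TTDV, with a median of 8.27. The highest TTDV value was in S10, at 20-25 d, where S11 and S12 had 10.3 and 4.15 CPM. The lowest F39 value was in S1, of the same age. The TMM factors were 0.9612 in S10 and 1.26 in S1, and scaling by them would place S10 above S1. The full separation of MELO3C016167.2 thus depends on the scaling. Among all genes tested, 9 were higher and 4 lower in every TTDV library in this way.

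**Figure D5:**
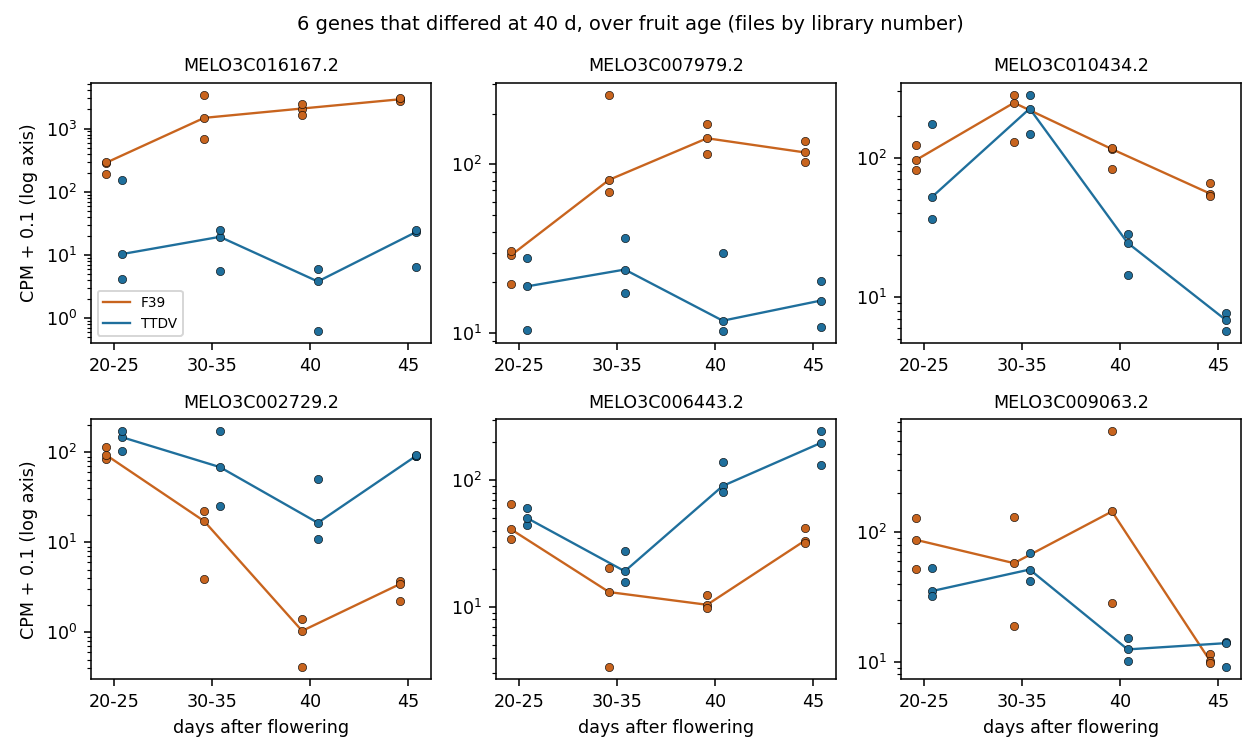
Abundance (y axis, CPM + 0.1, log axis) of 6 genes called at 40 d in fruits of each age (x axis, days after flowering), with 1 point per library and lines through the group medians, files by library number. MELO3C016167.2 is higher in F39 at every age in CPM on library totals, though it was not called at 20-25 d (edgeR adjusted p = 0.454). MELO3C007979.2 is higher in F39 from 30-35 d on, and MELO3C010434.2 is lower in TTDV at 40 and 45 d. MELO3C002729.2 is higher in TTDV from 30-35 d on and MELO3C006443.2 at 40 and 45 d. MELO3C009063.2 has F39 above TTDV at 40 d and overlapping groups at 20-25, 30-35 and 45 d.

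The share of called genes that also changed with fruit age was near that of all genes. Between 20-25 and 45 d, tested within each cultivar in the same model, 24.2% of all genes tested changed in the same direction in both cultivars. Of the 28 genes 7 did (25%), of which 1 rose and 6 fell, where 10.7% and 13.5% of all genes did. A mean of 1 CPM or more in leaf was found for 14 of the 17 genes higher in TTDV (82.4%) and for all 11 lower genes, beside 81.7% of all genes tested. The leaf libraries are all F39, so tissue and cultivar cannot be told apart here. The genes below that level, MELO3C010155.2, MELO3C019418.2 and MELO3C028160.2, also had few or no counts in F39 fruit.

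The most abundant genes of the fruits varied more between libraries than between cultivars. MELO3C020432.2, the leading gene of all 3 TTDV libraries, had 15420, 24670 and 20540 CPM in S7, S8 and S9 and 23000, 16450 and 17270 CPM in S16, S17 and S18, and its log2 fold change was -0.29 (SE 0.75, adjusted p = 0.934). The leading genes of the F39 libraries differed from one library to the next. MELO3C025025.2, leading in S7, had 16620, 1432 and 18990 CPM in F39 and 2647, 6083 and 2196 CPM in TTDV (adjusted p = 0.611). MELO3C031322.2, leading in S8, had 13300, 31710 and 3070 CPM in F39 and 16990, 114.8 and 9779 CPM in TTDV (adjusted p = 0.828). MELO3C005161.2, leading in S9, had 456, 288 and 33440 CPM in F39 and 2706, 64.4 and 198 CPM in TTDV (adjusted p = 0.337). The 10 most abundant genes held 13.5% ± 4.0 of counts in F39 and 9.88% ± 0.93 in TTDV (SD, n = 3 each), with ranges of 10.1 to 17.9% and 8.81 to 10.5% that overlapped.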

How the data were processed

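What the authors deposited is raw counts, 1 whole number per gene and library, not normalized. Per the labels' protocols, RNA was taken up in Trizol, cleaned on columns and made into libraries from mRNA. The submitters' processing notes name STAR 2.5.4b and edgeR 3.12.1 without a role. Not given in the sources used here were the counting program, genome build, annotation, strand setting and handling of shared reads, so similar or overlapping genes have uncertain counts. Each file's column carries a library number, and files were assigned to the sample whose title has that number. For 12 of 27 libraries this differs from the attachment in GEO, and the attachment was an alternative.

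Counts were analysed with edgeR 4.0.16 (limma 3.58.1, R 4.3.3): filterByExpr kept 15130 of 25200 genes, libraries were scaled by TMM, and a single model held all 27 libraries in 9 groups. Contrasts used the quasi-likelihood F-test (robust), and p-values were Benjamini-Hochberg adjusted, with a threshold of 0.05. CPM values use library totals. Intervals (95%) and floors cover counting error only. DESeq2 1.42.0 was an alternative. The edgeR code was run on simulated data with a common dispersion and changes only in well-counted genes. That run checks the code and not the calls made here. Single values were compared by exact permutation. Genes were named by rule: those called, separated and at 10 CPM or more with the 8 largest fold changes or the 5 largest CPM differences in each direction, up to 5 in each direction present in 1 cultivar only, up to 3 in each direction in the test between 40 and 45 d, and the leading gene of each library. Lists by product name could not be run without gene names. The groups, rules and gene choices were made with earlier results of these data known. Total counts of 6500255 to 15214810 in the 6 libraries limit the precision of low genes.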

Additional observations from a re-analysis of the deposited data

How the results depend on the processing

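The count of 28 genes at 40 d was 1127 with files as attached, 0 with only the groups compared, 297 with DESeq2 and 72 at an adjusted p threshold of 0.1, the last chosen after seeing the data. It ranged from 7 to 53 without 1 library, and was 27 with median-of-ratios scaling, 28 without a filter, 28 with a stricter filter (12 higher, 16 lower) and 22 with only the 24 fruit libraries, also chosen after seeing the data. Of the 28 genes, 24, 26 and 22 were still called with median-of-ratios scaling, without a filter and with only fruit libraries, and 22 of the 23 tested with the stricter filter. Without S10, also chosen after seeing the data, 33 genes were called (16 higher, 17 lower), 26 of the 28 among them. The 0 calls for the 40 d difference against the 45 d difference became 2572 as attached and 40 with DESeq2, and ranged from 0 to 1 without 1 library. The 0 calls against the 20-25 d difference became 729 as attached, 2 with only the groups compared and 115 with DESeq2. The causes were not tested. The attachment places other libraries in the groups. A fit of only the groups compared changes the residual degrees of freedom, the estimate of the spread, the scaling and the genes kept, all together.

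With files as attached, MELO3C005785.2 (-0.27) and MELO3C016167.2 (0.23) changed sign, neither past the threshold. MELO3C019418.2 (-0.00) and MELO3C028160.2 (-0.00) then had no count in either group and so no sign, and MELO3C010155.2 (-2.34) rested on 1 count. In no other alternative run did a called gene change sign. The share of called genes that changed with age in both cultivars became 0.0887% as attached (1 of 1127), where the share of all genes tested was 0.0198%. The difference in stage position was 0.498 as attached (exact permutation, p = 0.1, the smallest possible) and ranged from -0.036 to 0.118 without 1 library. The attachment also rebuilt the stage scale from other libraries, and the group means were then 1.583 in TTDV and 1.086 in F39. The value as attached is therefore not in the same units as the main value. The difference in leaf-associated CPM ranged from -19540 to 122.9 without 1 library. No paired analysis was possible because the titles give only library numbers, which the 2 groups do not share, and replicates 1 to 3 were numbered within each group.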

Other observations

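Beyond the 28 genes, 8 genes that did not pass the test at 40 d separated every TTDV fruit library from every F39 fruit library by library number. The separation was taken in CPM on library totals, and these genes were singled out after their values were seen. Of these, 6 were higher in TTDV. MELO3C019503.2 had 56.5 to 172 CPM in the 12 TTDV libraries and 4.87 to 48.5 CPM in the 12 F39 libraries, with a log2 fold change of 1.75 at 40 d (edgeR with Benjamini-Hochberg adjustment, adjusted p = 0.154). MELO3C016656.2 had 11.4 to 33.2 CPM in TTDV and 0.541 to 6.51 CPM in F39 (adjusted p = 0.109 at 40 d). MELO3C032454.2 had 1.82 to 113.8 CPM in TTDV and at most 0.438 CPM in F39 (adjusted p = 0.091). MELO3C004321.2 had 2.37 to 13.6 CPM in TTDV and 0.105 to 1.76 CPM in F39 (adjusted p = 0.238). MELO3C033070.2 and MELO3C035704.2 were also higher in TTDV but reached only 5.10 and 1.65 CPM there. MELO3C028813.2 and MELO3C030496.2 were lower, with at most 0.0828 and 0.286 CPM in TTDV.

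With files by library number 9 genes were higher and 4 lower in all 12 TTDV fruit libraries than in all 12 F39 fruit libraries. With files as attached, 0 genes were higher and 0 lower in this way. This was counted in CPM on library totals over all genes tested, with no test.

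Library S10, TTDV at 20-25 d by number and attached to F39 at 45 d, stood apart from S11 and S12 in some genes that separate the cultivars, and these genes were singled out after their values were seen. Among genes high in F39 at 40 d, MELO3C016167.2 had 155.2, 10.3 and 4.15 CPM in S10, S11 and S12. MELO3C035133.2 had 24.6, 0 and 0 CPM, MELO3C035515.2 had 10.8, 1.93 and 2.71 CPM and MELO3C031410.2 had 1.58, 0 and 0 CPM. Others showed no such excess, such as MELO3C007979.2 at 18.8, 27.95 and 10.4 CPM, MELO3C010434.2 at 36.4, 174.7 and 52.0 CPM, MELO3C026575.2 at 3.29, 2.32 and 1.95 CPM, MELO3C007575.2 at 5.51, 10.45 and 6.35 CPM and MELO3C004313.2 at 0, 0 and 0.592 CPM. Among genes present in TTDV, MELO3C030913.2 had 0, 6.67 and 8.12 CPM, MELO3C028160.2 had 1.00, 5.42 and 4.15 CPM and MELO3C010155.2 had 1.00, 2.42 and 2.20 CPM, while MELO3C019418.2 had 8.31, 7.25 and 6.35 CPM. Whether S10 holds RNA of both cultivars was not tested.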
